A study of Saccharomyces cerevisiae with 10 samples.

Results

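Chromosomes V, VII, VIII, XIV and XV of diploid Saccharomyces cerevisiae were followed SNP by SNP on microarrays that carry separate probes for each parental allele. They were chosen by the allelic balance of the HK isolates in these data, which showed both alleles to be kept there, and the stretch of chromosome V around CAN1, the arginine permease gene whose loss gives canavanine resistance, was left out. This left 4256 SNPs of the 13461 on the array (31.6%), read by 16925 of its 53664 probes. The series concerns genome instability and RNase H2, which starts the removal of ribonucleotides from DNA. Genomic DNA of 10 isolates was labelled with Cy5 and hybridised against DNA of a control diploid, JSC24, labelled with Cy3.

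The isolates were 2 purified isolates, A and B, of HK10, 2 purified isolates, A and B, of HK12, 4 zygotes of the cross of MD893-1 with LSY3454-2, and 2 zygotes of the cross of MD893-2 with LSY3454-2. All 10 are labelled as diploids from W303-1A and YJM789, parents with many single-base differences, and all grew in YPD, a rich medium, at 30 °C. The labels give no RNase H2 genotype for any strain and no further treatment. The zygotes are called independent. Isolates A and B share an HK name and may come from 1 culture, so a p-value over isolates rests partly on variation inside a name.

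When a diploid repairs a broken chromosome from its homolog, the repair can copy the allele of the intact homolog over that of the broken homolog. A short patch of such copying, a gene conversion, makes a stretch homozygous while both alleles remain on each side of it. A crossover during the same repair can make the chromosome homozygous out to the telomere, and loss of a whole homolog leaves all of its SNPs with the other allele alone.

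Each SNP has up to 4 probes, for the S allele and the Y allele on both strands. The labels do not say which parent S and Y stand for. The measure of allelic balance, d, is the log2 ratio averaged over the S probes minus the same average over the Y probes, so that 0 means the same balance as in the control and a negative d means less S relative to Y. The measure of total signal, s, was the mean log2 ratio over both alleles. A SNP was called unbalanced where d lay beyond 1 on either side. Chromosome V held 714 of the SNPs over 561 kb, chromosome VII 1121 over 1058 kb, chromosome VIII 453 over 507 kb, chromosome XIV 706 over 714 kb, and chromosome XV 1262 over 1052 kb. The median spacing was 349 to 429 bp and the widest gaps were 13.2 to 40.4 kb. Positions are those of the deposited table, which names no genome build, and no gene was placed on them.

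Since d of the HK isolates chose the chromosomes, what follows on d in those isolates is a description without a test. The chromosomes were balanced over nearly all of their length. In the HK isolates d lay within 0.5 of 0 at 98.3% and 96.4% of the measured SNPs in isolates A and B of HK10 and at 96.9% and 97.6% in isolates A and B of HK12, against 90.0% to 99.2% in the 6 zygotes. Of the 3722 SNPs measured on all 10 arrays, 3667 (98.5%) stayed within 1 on every array. The exceptions that recurred were few and short.

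At chromosome V 139257 to 141767, 4 adjacent SNPs spanning 2.51 kb were unbalanced toward Y in both HK10 isolates. In HK10 A their d was -3.53, -3.34, -2.17 and -2.86, and in HK10 B it was -6.43, -3.47, -2.09 and -2.95. The -6.43 rested on a single S probe, with the S probe of the other strand missing. The same held for the -3.34 and -3.47 at SNP 140419. The 8 values of the HK12 isolates lay between -0.27 and 0.10, and the 24 values of the zygotes between -0.45 and 0.38, with a median of 0.09. Every HK10 value was thus below every value of the other 8 isolates. The nearest SNPs outside, at 137832 and 144252, had d of -0.23 and -0.07 in HK10 A and 0.47 and -0.33 in HK10 B, so the unbalanced stretch was at most 6.42 kb long.

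A second stretch lay on chromosome VII at 924015 to 926456, with 3 SNPs over 2.44 kb. HK10 A had d of -2.51, -3.38 and -2.82 there, the -2.51 from a single S probe. HK10 B, in which the first of these SNPs was not measured, had -3.58 and -3.08. HK12 isolates had values from -0.15 to 0.26, and the zygotes from -0.28 to 0.63 with a median of 0.02, so the HK10 values again stood apart. Balanced SNPs at 922625 and 927149 limited the stretch to 4.52 kb.

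On chromosome VIII a single SNP, at 422983, was unbalanced in both HK10 isolates. Its d was -3.59 in HK10 A and -3.86 in HK10 B, against -0.10 in HK12 A and -0.01 in HK12 B, while the zygotes ranged from -0.27 to 0.04 with a median of -0.10. Its neighbours stood 3.38 kb to the left and 3.31 kb to the right, and their d lay between -0.24 and -0.02 in the HK10 isolates. A stretch of up to 6.69 kb would therefore carry this 1 SNP only. Among lone unbalanced SNPs, it was the only one of the 4 in HK10 A and the 15 in HK10 B that both shared, and of the 20 in HK12 A and the 12 in HK12 B none was shared.

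**Figure D1:**
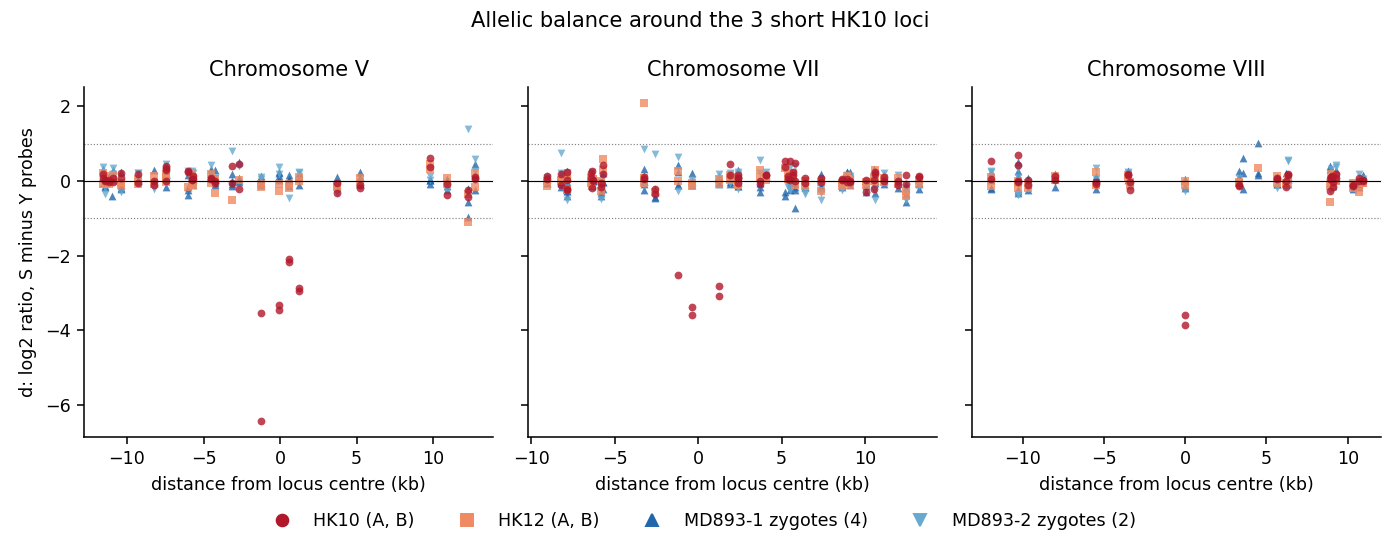
Allelic balance d (log2, vertical axis) of each SNP against its distance in kb from the centre of the stretch on chromosomes V, VII and VIII, with 1 point per isolate and SNP and dotted lines at 1 and -1. The HK10 points drop to between -6.43 and -2.09 inside the 3 stretches, while HK12 isolates and zygotes remain between -0.45 and 0.63 there. The lowest point, -6.43 in HK10 B, rests on a single S probe.

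Each allele's level was also read on its own, as a description of stretches picked by their d. Relative to balanced SNPs of the same chromosome and array, the S level over the 15 HK10 values of the 3 stretches had a median of -2.80 on the log2 scale (range -6.00 to -1.38), and the Y level a median of 0.68 (range 0.35 to 0.82). The -6.00 came from a single S probe. On the long unbalanced tracts of the HK10 isolates on other chromosomes, 9 runs of at least 50 SNPs toward Y, the median over each run was -2.97 to -2.68 for S and 0.59 to 0.72 for Y. The S level was low and the Y level high in both the short stretches and the long tracts. The tracts too were picked by their d, so S below Y is given by the choice in both. Single probes were read relative to the median of the array, not to balanced SNPs of the chromosome. On that scale 26 of 26 measured S probe values in HK10 were below 0 (6 were missing), and 30 of 31 Y probe values were above 0. In the other 8 isolates the median was 0.01 over 121 S probe values and -0.01 over 128 Y probe values.

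**Figure D2:**
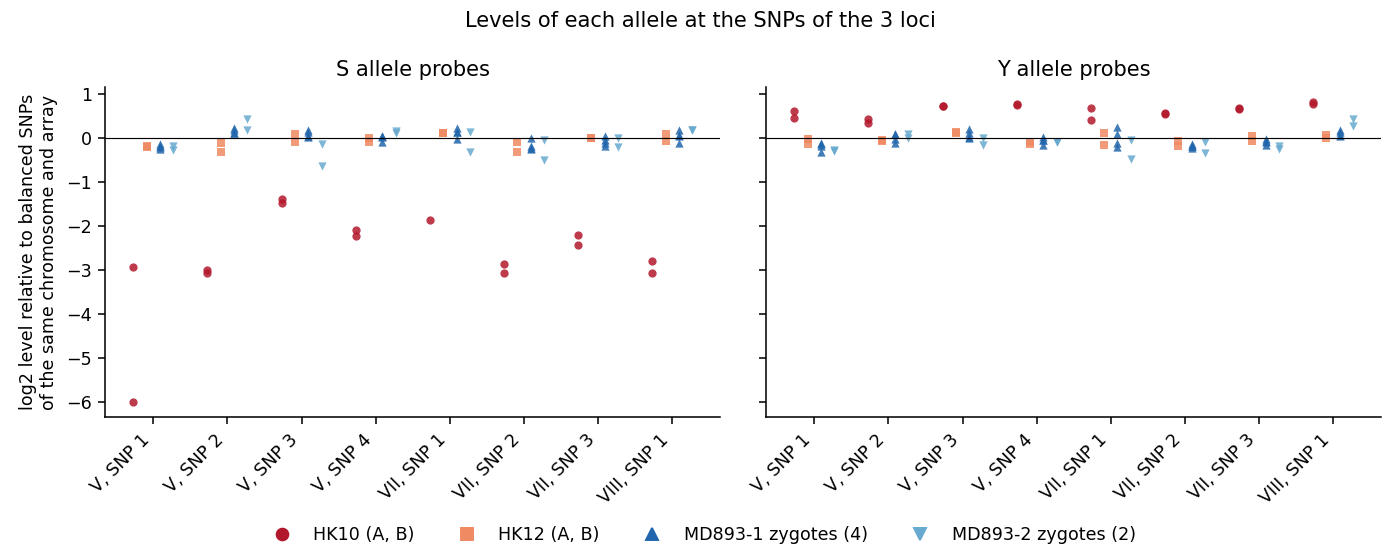
Level of the S allele (left) and the Y allele (right) at each SNP of the 3 stretches, in log2 units relative to balanced SNPs of the same chromosome and array, with 1 point per isolate. In HK10 the S points lie between -6.00 and -1.38 and the Y points between 0.35 and 0.82. The lowest S point comes from a single S probe.

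The stretches on chromosomes V and VII were the only runs of 2 to 4 unbalanced SNPs that occurred in an HK isolate and in no zygote. They were found with the same ends when the threshold on d was 0.75 or 1.5, when it was 4 times the noise of the array, and when the median of each SNP over the 10 arrays was subtracted. Every HK10 value of d inside them was -2.09 or lower, so these thresholds could not lose them. On the other 11 chromosomes, where long homozygous tracts occur in the HK isolates, runs of 2 to 4 unbalanced SNPs numbered 5 or 6 in each HK isolate, against 0 to 2 in each zygote. On chromosome XIV no run of 2 or more unbalanced SNPs was found in any isolate.

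One more short stretch was unbalanced in all 10 isolates and toward S. It held 5 SNPs at chromosome XV 370120 to 371629, 1.51 kb in length. Its mean d was 2.07 over 3 measured SNPs and 1.48 over 2 in isolates A and B of HK10, and 2.14 over 5 and 1.92 over 4 in isolates A and B of HK12, against 1.97 to 2.36 in the zygotes. At the SNPs measured on all 10 arrays, 371113 and 371387, d was 1.42 to 2.13 and 1.32 to 1.87 in the HK isolates and 1.96 to 2.44 and 1.43 to 1.94 in the zygotes, so the groups overlapped. Because d compares each isolate with the control DNA of JSC24, d alone does not tell a change in the isolates from a change in the control. The S level there had a median of 1.18 in HK isolates and 1.56 in zygotes, and the Y level a median of -0.71 in HK isolates and -0.66 in zygotes. In the HK10 stretches, where S was low, the medians were -2.80 for S and 0.68 for Y. Whether the isolates or the control carry the change was not tested.

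Among SNPs measured on every array, those with the largest mean d on chromosomes V, VII, VIII and XV lay inside these stretches, apart from VIII 360897. That SNP had d of -0.44 to -0.01 in the HK isolates and -0.70 to -0.08 in the zygotes. On chromosome XIV, SNP 126293 had d of -0.58 to -0.45 in the HK isolates and -0.66 to -0.25 in the zygotes, a moderate shift shared by all isolates. SNP 21272 of chromosome XIV had 0.10 to 0.33 in the HK isolates and -0.03 to 2.24 in the zygotes, with both MD893-2 zygotes beyond 1.

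The kept SNPs on each side of the left-out stretch of chromosome V were balanced. SNP 29676 had d of -0.06 to 0.22 over 10 arrays, and SNP 37492 had -0.53 to -0.01 over the 5 arrays that measured it. Within the left-out stretch, SNPs 31251 to 33770 had d of -2.86 to -0.56 in the isolates with a value, on 1 to 10 arrays per SNP. Nearer its edges, SNPs 30652, 34235 and 34481 had d of -0.46 to 0.19.

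Apart from recurrent stretches, unbalanced SNPs were scattered. Lone ones numbered 4 and 15 in isolates A and B of HK10, VIII 422983 included, and 20 and 12 in isolates A and B of HK12. MD893-1 zygotes had 1, 1, 4 and 10, and MD893-2 zygotes 49 and 52. The counts below include the recurrent stretches. Most of the unbalanced SNPs so counted in each HK isolate and each MD893-2 zygote rested on incomplete probe sets. Of the 160 SNPs beyond 1 in at least 1 isolate, 131 were so in exactly 1 isolate. The number of unbalanced SNPs was 14 and 23 in isolates A and B of HK10, of which 8 and 14 had fewer than 4 probes measured, and 25 and 16 in isolates A and B of HK12, of which 22 and 9 did. It was 6, 6, 8 and 15 in the zygotes of MD893-1, while those of MD893-2 had 54 and 57, of which 44 and 49 had fewer than 4 probes. In MD893-1 zygotes 1 and 2, 5 of the 6 lay in the chromosome XV stretch. SNPs with fewer than 4 probes made up at most 18.8% of the measured SNPs in any HK isolate and 6.30% to 25.4% in the zygotes.

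The noise of d, the scaled median absolute deviation, was 0.138 and 0.160 in isolates A and B of HK10 and 0.169 and 0.156 in isolates A and B of HK12. The zygotes of MD893-1 had 0.195, 0.160, 0.142 and 0.155, and those of MD893-2 had 0.186 and 0.272. The average was 0.163 ± 0.0228 over the 4 zygotes of MD893-1 and 0.229 ± 0.0610 over the 2 zygotes of MD893-2 (SD), and the groups overlapped. Their difference of -0.0664 had an exact two-sided permutation p = 0.267, and 0.133 is the smallest p that 4 against 2 zygotes allow. Noise was higher at SNPs with 3 probes, 0.254 to 0.445 across isolates, than at SNPs with 4 probes, 0.129 to 0.243. By chromosome it was 0.131 to 0.172 in the HK isolates and 0.128 to 0.283 in the zygotes.

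**Figure D3:**
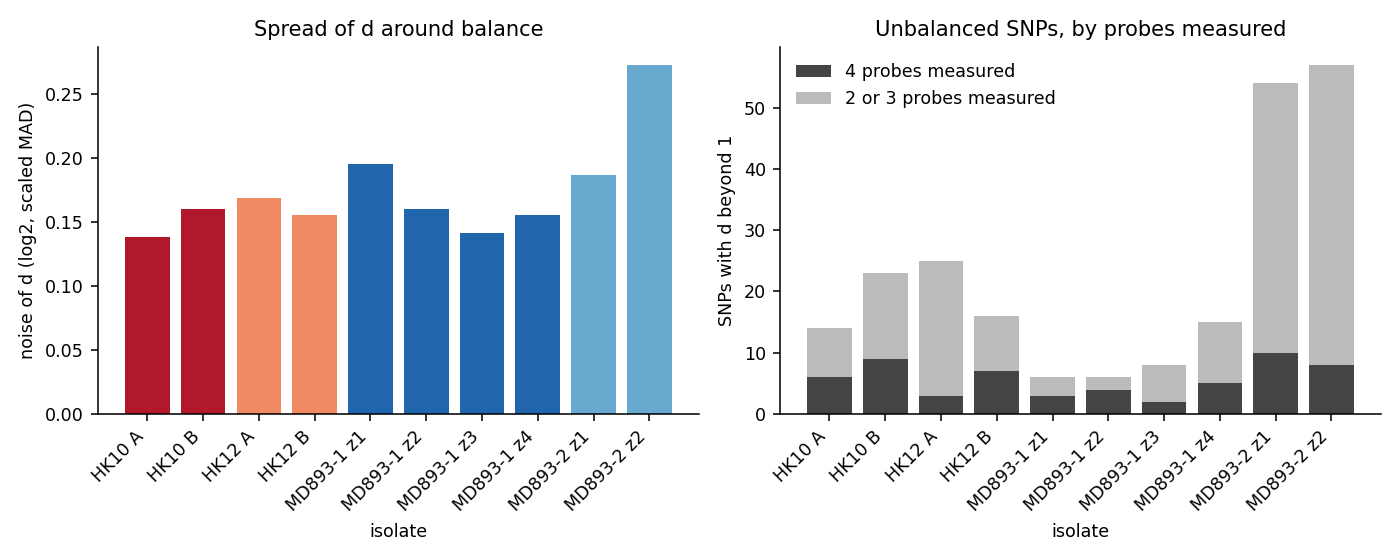
Left, noise of d (scaled median absolute deviation, log2) in each isolate, 1 bar per array. Right, number of SNPs with d beyond 1 in each isolate, split by whether all 4 probes were measured; the tallest bars are those of the MD893-2 zygotes, with 54 and 57 SNPs, mostly with 2 or 3 probes measured.

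Missing values decide which short stretches can be seen. SNPs without a value of d made up 4.06% and 3.78% in isolates A and B of HK10 and 5.99% and 4.72% in isolates A and B of HK12, against a lowest value of 0.493%, a median of 2.90% and a highest of 8.58% in the zygotes. The groups overlapped, with 4.64 ± 0.983% in the HK isolates (SD, n = 4) and 3.87 ± 3.53% in the zygotes (SD, n = 6), and the difference of 0.768 points had an exact two-sided permutation p = 0.667. Both MD893-2 zygotes lay above every HK isolate and the MD893-1 zygotes below every HK isolate. Without both MD893-2 zygotes, an alternative chosen after seeing the data, the difference was 2.93 points.

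Total signal was not used to choose the chromosomes, so it was tested between HK isolates and zygotes. Chromosomes V and VIII had more signal in the HK isolates than in the zygotes, chromosomes VII and XV had less, and chromosome XIV had more. All values of s are relative to the median of balanced SNPs on the same array, and the sizes depend on this choice. These differences concern the level of a whole chromosome, while both alleles remained in balance along it.

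On chromosome VIII, s was 0.152 and 0.158 in isolates A and B of HK10 and 0.176 and 0.153 in isolates A and B of HK12, against a lowest value of -0.0341, a median of -0.0123 and a highest of -0.00626 in the zygotes. Chromosome V had 0.139 and 0.152 in HK10, and 0.159 and 0.145 in HK12, against -0.0144 to 0.00989 in the zygotes with a median of -0.00589. The HK isolates and the zygotes did not overlap on either chromosome. The difference was 0.174 on chromosome VIII and 0.153 on chromosome V.

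On chromosome VII, s was -0.0849 and -0.0815 in isolates A and B of HK10 and -0.0699 and -0.0860 in isolates A and B of HK12, against -0.00417 to 0.00923 in the zygotes with a median of 0.00301. Chromosome XV had -0.0845 and -0.0716 in HK10, and -0.0754 and -0.0855 in HK12, against -1.06e-05 to 0.0103 in the zygotes with a median of 0.00354. Chromosome XIV had 0.0105 and 0.0173 in HK10, and 0.0292 and 0.0114 in HK12, against -0.00596 to 0.00571 in the zygotes with a median of -0.00180. The HK isolates thus lay below every zygote on chromosomes VII and XV and above every zygote on chromosome XIV. The differences were -0.0831 on VII, -0.0838 on XV and 0.0185 on XIV. With s centred on the median of all SNPs of the array instead, they were -0.0463 on VII, -0.0470 on XV and 0.0552 on XIV, and 0.190 on V and 0.211 on VIII, with no sign changed.

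Each of the 5 differences had an exact two-sided permutation p = 0.00952, also after Benjamini-Hochberg adjustment over the 5 chromosomes, the smallest p that 4 isolates against 6 allow. With 1 value per HK name the differences were as large, but in an exact permutation test 2 names against 6 zygotes cannot go below p = 0.0714, which each reached. The order of s in the HK isolates followed the span of the chromosomes, with VIII and V, the shortest of the 5, highest and VII and XV, the longest, lowest. The signal of V and VIII minus that of VII and XV, which is free of the array's scaling, was 0.234 ± 0.00440 in the HK isolates (SD, n = 4) and -0.0131 ± 0.00885 in the zygotes (SD, n = 6). That difference of 0.247 also had an exact permutation p = 0.00952. Among all 16 chromosomes ranked by s in the HK isolates, VIII stood 5, V 6, XIV 8, XV 12 and VII 13. X, IV and XII stood lowest, with s that varied between the HK isolates (SD of 0.210, 0.326 and 0.427). Homozygous tracts on other chromosomes enter this ranking, so it is not an order of whole-chromosome level alone. Those with the highest s were I, VI, III and IX, from 0.676 on I to 0.275 on IX, against -0.0349 and -0.0201 in the zygotes.

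**Figure D4:**
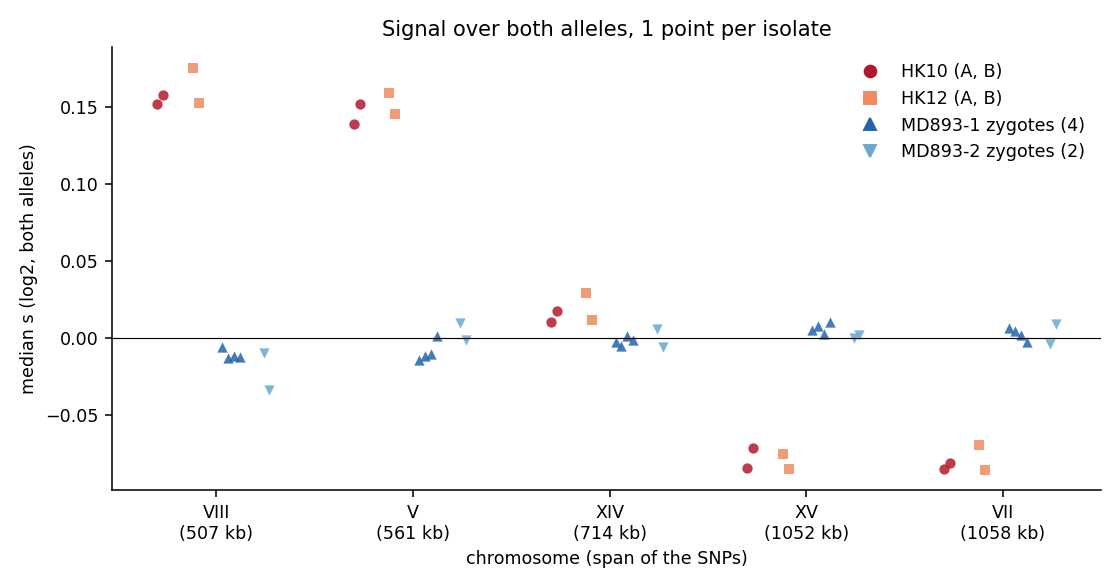
Median s of each chromosome (log2 over both alleles, relative to balanced SNPs of the same array), 1 point per isolate, with chromosomes ordered by the span of their SNPs. HK points lie above every zygote on VIII, V and XIV and below every zygote on XV and VII.

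The same shift was visible across single SNPs. In a limma fit over all SNPs of the array, 1270 of the 3975 tested SNPs of these chromosomes (31.9%) had a changed s between HK isolates and zygotes at a Benjamini-Hochberg adjusted p under 0.05, with 682 higher and 588 lower in the HK isolates. This fit takes both isolates of a name as independent, and with the HK name as a random block, whose estimated correlation was 0.310, the count was 899. Over the whole array 48.7% were called, 17.8% higher and 30.9% lower, a background that includes homozygous tracts on other chromosomes, where loss of an allele lowers s. On chromosome V 348 SNPs were higher and 6 lower of 670 tested, and on chromosome VIII 234 were higher and 2 lower of 417. Chromosome VII had 10 higher and 247 lower of 1048, chromosome XV 19 higher and 298 lower of 1181, and chromosome XIV 71 higher and 35 lower of 659. The median difference over the tested SNPs was -0.0104 on the 5 chromosomes and -0.0450 over the array. After each chromosome was centred on its own median, 391 SNPs were called, 204 higher and 187 lower, beside 25.6% of the array.

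The SNPs with the largest called difference in s were VII 860665, V 140419 and VII 1015832. VII 860665 differed by -0.91 ± 0.07 (SE, limma adjusted p = 0.000879), but was measured in 2 HK isolates and 3 zygotes, and its s was -1.97 in the 1 HK12 isolate and -0.10 in the 1 HK10 isolate. V 140419, a SNP of the HK10 stretch, differed by -0.70 ± 0.05 (SE). Its s ran from -1.19 to 0.10 in the HK isolates. HK12 was balanced there, with d of -0.07 in isolate A and -0.27 in isolate B. The stretch was picked by d from the same probe values as s, so this call is no separate result. VII 1015832 had s of -0.88 to -0.29 in 3 HK isolates, against -0.16 to 0.24 in 3 zygotes.

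Taken over the 5 chromosomes, the HK isolates had more signal near the ends than the zygotes, but not on every chromosome. Signal within 30 kb of the outermost SNPs minus that of the remaining SNPs, each chromosome centred, was 0.0181 and 0.0384 in isolates A and B of HK10 and 0.0395 and 0.0358 in isolates A and B of HK12. In the zygotes it ran from -0.0339 to 0.00367 with a median of -0.00109. The HK isolates averaged 0.0330 ± 0.0100 (SD, n = 4) and the zygotes -0.00726 ± 0.0139 (SD, n = 6), and the difference of 0.0402 had an exact two-sided permutation p = 0.00952. On chromosome XV alone the value was 0.117 ± 0.0215 in the HK isolates and -0.0106 ± 0.0143 in the zygotes. HK isolates and zygotes did not overlap on chromosome V, with 0.0179 to 0.0431 in HK isolates and -0.0267 to 0.0146 in zygotes, or on chromosome XIV, with 0.00938 to 0.0360 in HK isolates and -0.0285 to 0.00488 in zygotes. They overlapped on chromosome VII, with -0.0124 to 0.0210 in HK isolates and -0.0514 to 0.0482 in zygotes, and on chromosome VIII, with -0.0283 to 0.0137 in HK isolates and -0.0812 to 0.0318 in zygotes. Without chromosome XV, an alternative chosen after seeing the data, the difference was 0.0246 with an exact permutation p = 0.0190, and with 1 value per HK name for all 5 chromosomes the exact permutation p was 0.0714, the smallest possible.

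In windows of 20 kb, chromosome centred, 7 of 178 (3.93%) had HK isolates and zygotes that did not overlap in s, beside 6.49% of the windows of the whole array. The whole array includes the homozygous tracts of other chromosomes. The window with the highest difference on chromosome XV, 12064 to 19925 with 31 SNPs, had s of 0.148 to 0.195 in the HK isolates and -0.0562 to 0.0604 in the zygotes, a difference of 0.184. It was the only one of the 178 windows with a difference beyond 0.1, and the median absolute difference was 0.0216. The highest windows elsewhere were V 560698 to 568114 with 0.0578, VII 1060123 to 1068125 with 0.0825, VIII 482764 to 494968 with 0.0881 and XIV 201172 to 216636 with 0.0455. The lowest were V 340276 to 357860 with -0.0662, VII 620369 to 634949 with -0.0995, VIII 141697 to 149411 with -0.0713, XIV 247556 to 259187 with -0.0843 and XV 640115 to 656555 with -0.0551. The SD of s between windows was 0.0475 ± 0.00475 in the HK isolates (SD, n = 4) and 0.0489 ± 0.0126 in the zygotes (SD, n = 6). MD893-2 zygote 2 had 0.0734, against 0.0391 to 0.0507 in the other zygotes. The difference between HK isolates and zygotes, -0.00133, had an exact permutation p = 0.971. It changed sign in windows of 50 kb and without HK12 A or MD893-2 zygote 2.

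At the left end of chromosome XV the added signal was on the Y allele. Over the 33 SNPs from 12064 to 22345, a stretch set after its values were seen, the Y level was 0.31 and 0.29 in isolates A and B of HK10 and 0.34 and 0.32 in isolates A and B of HK12, relative to balanced SNPs of the chromosome. In the zygotes it was -0.04 to 0.04. The S level averaged 0.04 ± 0.03 in the HK isolates (SD, n = 4) and 0.00 ± 0.08 in the zygotes (SD, n = 6). The median d was -0.26 and -0.20 in HK10, and -0.30 and -0.28 in HK12, against -0.04 to 0.10 in the zygotes, so all 4 HK isolates lay below every zygote. The shift was small at each SNP and showed over many of them: d was below 0 at 25 of 27 and 23 of 28 measured SNPs in HK10, and at 26 of 28 and 26 of 27 in HK12, against 8 of 25 to 19 of 31 in the zygotes. From the next SNP at 30235 to 59724, over 45 SNPs, the Y level averaged -0.00 and the S level -0.02 in the HK isolates. There d was below 0 at 21 of 41 and 22 of 42 measured SNPs in HK10, and at 19 of 38 and 25 of 39 in HK12. In the zygotes it was below 0 at 16 of 45 to 25 of 43. These counts are a description without a test.

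**Figure D5:**
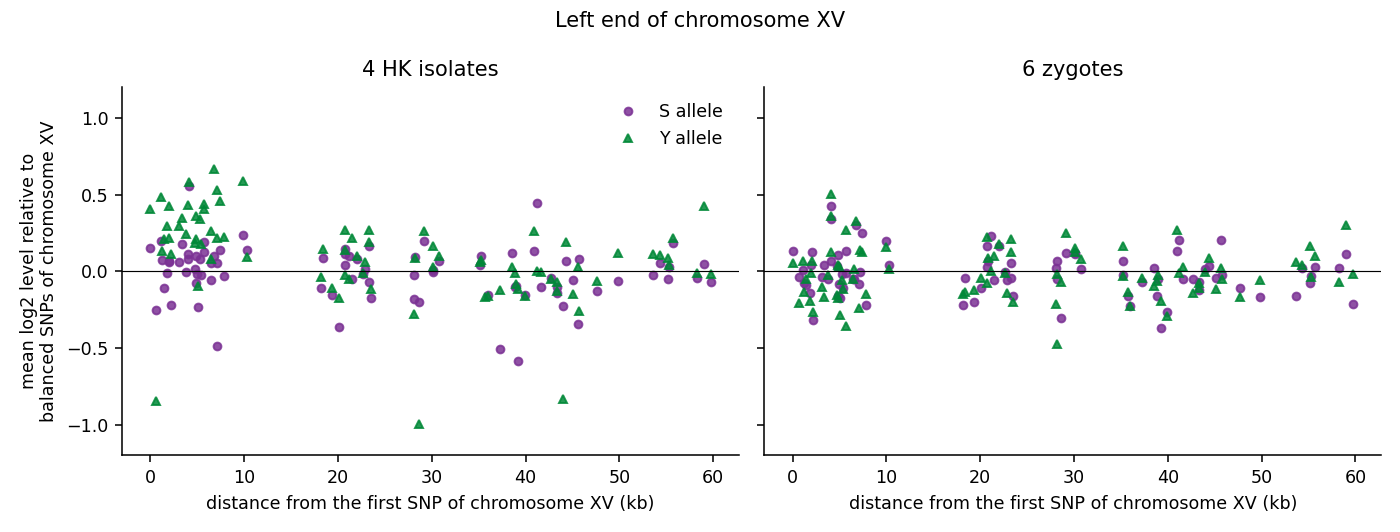
Mean log2 level of the S allele (circles) and the Y allele (triangles) at each SNP, relative to balanced SNPs of chromosome XV, against distance in kb from its first SNP, for 4 HK isolates (left) and 6 zygotes (right). In the HK isolates most Y points of the first 10 kb lie above 0, with a median per isolate of 0.29 to 0.34, and beyond the gap the points are centred near 0.

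Between the HK names, s differed at few SNPs. In the same limma fit 30 of 4080 tested SNPs (0.735%) changed between HK10 and HK12, 9 higher and 21 lower in HK10, beside 11.5% of the array (2.81% higher and 8.72% lower). With isolate letter as a replicate block, 7 were called of the 3722 SNPs measured on every array, the only SNPs that fit took. Without that block, the count was 51 when HK12 B was left out. The 30 include the 8 SNPs of the stretches on chromosomes V, VII and VIII, which were picked by d from the same probe values as s, so their calls are no separate result. Among them V 139257 had a difference of -1.84 ± 0.38 (SE). With the test limited to SNPs with all 4 probes, 14 were called. The other large differences were VII 860665 with 1.87 ± 0.11 (SE) and XV 87829 with 1.64 ± 0.09 (SE). VII 860665 was measured in 1 HK10 and 1 HK12 isolate, and XV 87829 in 2 HK10 isolates and 1 HK12 isolate.

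Between the crosses, 205 of 4032 SNPs (5.08%) changed in s between MD893-1 and MD893-2 zygotes at a limma adjusted p under 0.05, 113 higher and 92 lower in MD893-1 zygotes, beside 4.85% of the array (2.76% higher and 2.09% lower). In d, fitted on the zygotes alone, 61 of 4032 (1.51%) changed, 20 higher and 41 lower, beside 1.49% of the array (0.563% higher and 0.931% lower). Both shares were near the background. The SNPs with the largest called differences were VII 459095, XV 40214 and VII 1041856 in s, by 2.16 ± 0.20, 1.54 ± 0.17 and 1.31 ± 0.14 (SE), and XV 40214, VII 459095 and VII 870124 in d, by -3.07 ± 0.29, -2.78 ± 0.39 and -2.69 ± 0.15 (SE). Each of these was measured in 1 of the 2 MD893-2 zygotes, and adjusted p-values in limma ran from 0.00269 to 0.0496. The counts turned on single zygotes: in s they were 7, 3, 2 and 63 without MD893-1 zygote 1, 2, 3 or 4, and 328 or 9 without MD893-2 zygote 1 or 2. In d they were 17, 28 and 25 without MD893-1 zygote 1, 2 or 3 and 152 without MD893-2 zygote 1. With zygote number as a replicate block, 0 SNPs were called in s and 8 in d by limma, with 716 and 197 at an unadjusted p under 0.05. The block fits took only SNPs measured on every array of the fit, 3722 in s and 3764 in d. Whether the block or this limit on SNPs lowered the counts was not tested.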

How the data were processed

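The authors deposited linear ratios, Cy5 sample over Cy3 control, with 1 value for a probe on an array. How they filtered features, corrected background and scaled arrays, and which genome build they used, was not given in the sources used here. The source strain named in the labels tied each column to its isolate. For the zygotes it reads MD891 or MD892, and grouping followed the titles, which read MD893-1 and MD893-2. The members, lists and tests were chosen with earlier results of these data known.

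The log2 ratios of an array had their median subtracted, without loess or quantile normalization. The mean of the probes of each allele gave d and s. The array median was subtracted from d, and the median over SNPs with d within 1 of 0 from s. The noise of d is the median absolute deviation times 1.4826. Runs are adjacent measured SNPs beyond 1 on the same side. Windows of 20 kb needed 5 SNPs. Single values were compared by exact two-sided permutation tests over isolates, and all SNPs of the array by limma 3.58.1 (lmFit and eBayes, R 4.3.3), with Benjamini-Hochberg adjustment over all of them. One fit of s over 10 arrays in 4 groups and one fit of d over 6 zygotes were used. An isolate without a value at a SNP dropped out of the fit of that SNP. Of the 4256 SNPs, 7 had no value of d on any array. The fits and the calling of runs were tested on simulated data.

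Named SNPs, runs and windows were every run of at least 3 SNPs, every run of at least 2 SNPs found in an HK isolate and no zygote or the reverse, the 2 SNPs with the largest mean d and the windows with the highest and lowest difference in s on each chromosome, the SNPs beside the left-out stretch, and the 3 largest called differences of each limma comparison. Zygote numbers and isolate letters did not pair the samples: deviations of same-named arrays correlated at -0.237 to 0.105. The number of arrays limits the precision throughout. Alternatives were s centred on all SNPs, other thresholds, windows and end zones, SNPs with all 4 probes, 1 value per HK name, blocks, and leaving out each isolate. Probe sequences and genes at the positions were not analysed here.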

Additional observations from a re-analysis of the deposited data

Results flagged for a closer look

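Among 10 measures checked over the 4 MD893-1 zygotes, 1 had a sample far from the others. The signal s of chromosome VIII was -0.00626 in MD893-1 zygote 1, against -0.0131 to -0.0121 in the other MD893-1 zygotes. Chance alone gives such a sample in about 1 of 20 groups, and all 4 values lay below the lowest HK isolate.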

How the results depend on the processing

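The stretches on chromosomes V and VII were found under every threshold tried, but their HK10 values of d, -2.09 or lower, lay beyond all of these thresholds. Taking the median over the probes of an allele also gave them. An allele has no more than a probe on each strand, so their median equals their mean and that summary could not differ. With 1 value per HK name, the differences in s of chromosomes V (0.153), VII (-0.0831), VIII (0.174), XIV (0.0185) and XV (-0.0838), of V and VIII minus VII and XV (0.247) and of the ends (0.0402) each had an exact permutation p = 0.0714, the smallest that design allows. With s centred on the median of all SNPs, the differences were 0.190 for V, -0.0463 for VII, 0.211 for VIII, 0.0552 for XIV and -0.0470 for XV. The difference in SD between windows was 0.00213 in windows of 50 kb, 0.000182 without HK12 A and 0.00357 without MD893-2 zygote 2, and the cause was not tested. Without both MD893-2 zygotes, chosen after seeing the data, it was 0.00524, and the difference in missing values was 2.93 points.

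SNPs with a changed s between HK isolates and zygotes numbered 391 after centring each chromosome and 899 with the HK name as a random block. Between HK10 and HK12 the count was 14 with all 4 probes and 7 with the replicate block. Between MD893-1 and MD893-2 zygotes it was 84 in s and 22 in d with all 4 probes, 309 in s with a trended and robust fit, and 0 in s and 8 in d with the replicate block. The replicate block fits took only SNPs measured on every array of the fit. The noise difference within pairs of zygote numbers, as a replicate block, was -0.0519.

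Leaving out each isolate gave ranges of 0.15002 to 0.157 for V, -0.0866 to -0.0813 for VII, 0.169 to 0.177 for VIII, 0.0144 to 0.0207 for XIV, -0.0863 to -0.0817 for XV, 0.245 to 0.250 for V and VIII minus VII and XV, and 0.0349 to 0.0452 for the ends, each with exact p of 0.0159 to 0.0238. They were -0.00348 to 0.00357 for the SD between windows, 0.0916 to 1.71 points for missing values and -0.109 to -0.0232 for the noise. SNP counts ran from 897 to 1256 for HK isolates and zygotes, 24 to 51 for HK10 and HK12, and 2 to 328 in s and 17 to 152 in d for the crosses.

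Stretches without a measured SNP cannot be seen at this spacing, and a lone SNP such as VIII 422983 has no neighbour within 3 kb. Both HK names are represented by 2 isolates each.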
